A study of Mus musculus with 15 samples.

Results

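The genes described here are 10 genes of forebrain GABA neurons, chosen by name out of 53337 genes summed from transcripts. They are the transcription factors Dlx1, Dlx2, Dlx5, Lhx6, Sox6 and Nkx2-1, the GABA synthesis enzymes Gad1 and Gad2, and the peptides Sst and Npy. They were measured by strand-specific mRNA-seq of dorsal forebrain from C57BL/6J mouse embryos at embryonic day 18 (E18). The dams had been infused throughout pregnancy with arginine vasopressin (AVP), the hormone used in this model of preeclampsia, or with saline. Males from AVP dams (n = 4) and saline dams (n = 4) and females from AVP dams (n = 3) and saline dams (n = 4) were compared, with 1 brain in each library, no transgene, and 1 further AVP female that the study excluded as an outlier. By the study's account the embryos of each group came from separate litters. Males and females of a treatment can share a litter, but the labels do not pair them, so they were treated as separate samples. Values are TPM, in which a transcript's reads are corrected for its length and scaled to a fixed library total, so levels may be compared between genes, but the depth of each library is unknown.

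Cortical interneurons are not born in the cortex. They arise in the ganglionic eminences of the ventral forebrain, where the Dlx homeodomain factors set up GABA neuron fate, and migrate tangentially into the cortex before birth. In the medial eminence Nkx2-1 switches on Lhx6, and Lhx6 and Sox6 then keep migrating cells on the path to the Sst and parvalbumin classes, while Nkx2-1 is shut off in cells bound for cortex. Gad1 and Gad2 encode the enzymes GAD67 and GAD65, which make GABA from glutamate, and the Dlx factors and Gad genes are also used by striatal and olfactory bulb neurons. In bulk tissue, fewer cells of a type and less RNA per cell cannot be told apart.

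Somatostatin carries the one AVP difference among these genes whose groups did not overlap in males, so its sequences are shown. Sst lies on chromosome 16 (23889573 to 23890958, minus strand, GRCm38). The first line below gives the last 14 of its 116 codons (chr16:23889732-23889773, minus strand), the bases that encode the mature peptide somatostatin-14, read from the GENCODE M21 transcript. The second gives 30 bases around the cAMP response element, whose 8 letters are in capitals (chr16:23890874-23890903, minus strand).
Sst, somatostatin-14 codons: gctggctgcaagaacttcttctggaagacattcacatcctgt
Sst, cAMP response element: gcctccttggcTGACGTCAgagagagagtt
The match spans bases 48 to 41 before the start given by RefSeq (GRCm38.p6). The GENCODE model of the gene starts 114 bases further upstream, so there the element lies inside the gene model. TGACGTCA, which reads the same on both strands, was looked for in the 250 bases before each RefSeq start. It was found in 1.55% of all 32851 windows, and among the 16 windows of the 9 matched members (Dlx1, Dlx2, Lhx6, Sox6, Nkx2-1, Gad1, Gad2, Sst and Npy) only in that of Sst. The homeodomain core TAATTA was in none of these 16 windows, against 4.84% of all windows, and TATAAA on either strand was in 2 of them, of Gad1 and Sox6, against 12.4% of all windows. These matches describe letters only.

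Before the comparisons, 3 libraries stood apart. AVP female 2 and saline female 4 held olfactory bulb transcripts, with 71.5 and 60.1 TPM of the mitral cell cadherin gene Cdhr1, against at most 1.27 TPM in the other 13 libraries. Xist, the X-inactivation RNA of females, was at 266 TPM in the library labelled saline male 3, and at 174 to 294 TPM in the female libraries. That library had 0.11 TPM of the Y-linked Ddx3y, where the other 7 male libraries had 15.4 to 23.5 TPM of Ddx3y. By these transcripts it was female. Its label was kept, so it counts as a saline male below unless it is said to be left out. Markers of pallial excitatory neurons such as Neurod6 (471 to 728 TPM) were high in all 15 libraries. The 14 striatal markers summed to between 56.04 and 205 TPM, lowest in AVP male 1 and highest in AVP male 3. Hypothalamic markers summed to at most 10.3 TPM, with Nkx2-4 at 0 in all libraries, and basal forebrain cholinergic markers to at most 2.38 TPM.

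The peptides were the most abundant of the 10 genes and the medial eminence factor Nkx2-1 the least. Npy (chromosome 6) averaged 367 TPM ± 82.9 (SD, n = 15) and Sst 145 TPM ± 69.7. Next came Dlx1 with 56.1 TPM ± 11.2, Lhx6 with 45.9 ± 4.82 and Gad1 with 38.9 ± 9.94, all 3 on chromosome 2. Dlx2 averaged 20.04 TPM ± 2.87, Dlx5 17.1 ± 4.17, Gad2 14.3 ± 2.68 and Sox6 8.58 ± 1.18. Nkx2-1 averaged 0.82 TPM ± 0.36. Neighbours in this order had overlapping ranges except Sox6 and Nkx2-1. Within single libraries the order held more often, with Npy above Sst in 15 of 15 libraries, Sst above Dlx1 in 14, Dlx1 above Lhx6 in 12, Lhx6 above Gad1 in 13, Dlx2 above Dlx5 in 14 and Dlx5 above Gad2 in 13.

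**Figure D1:**
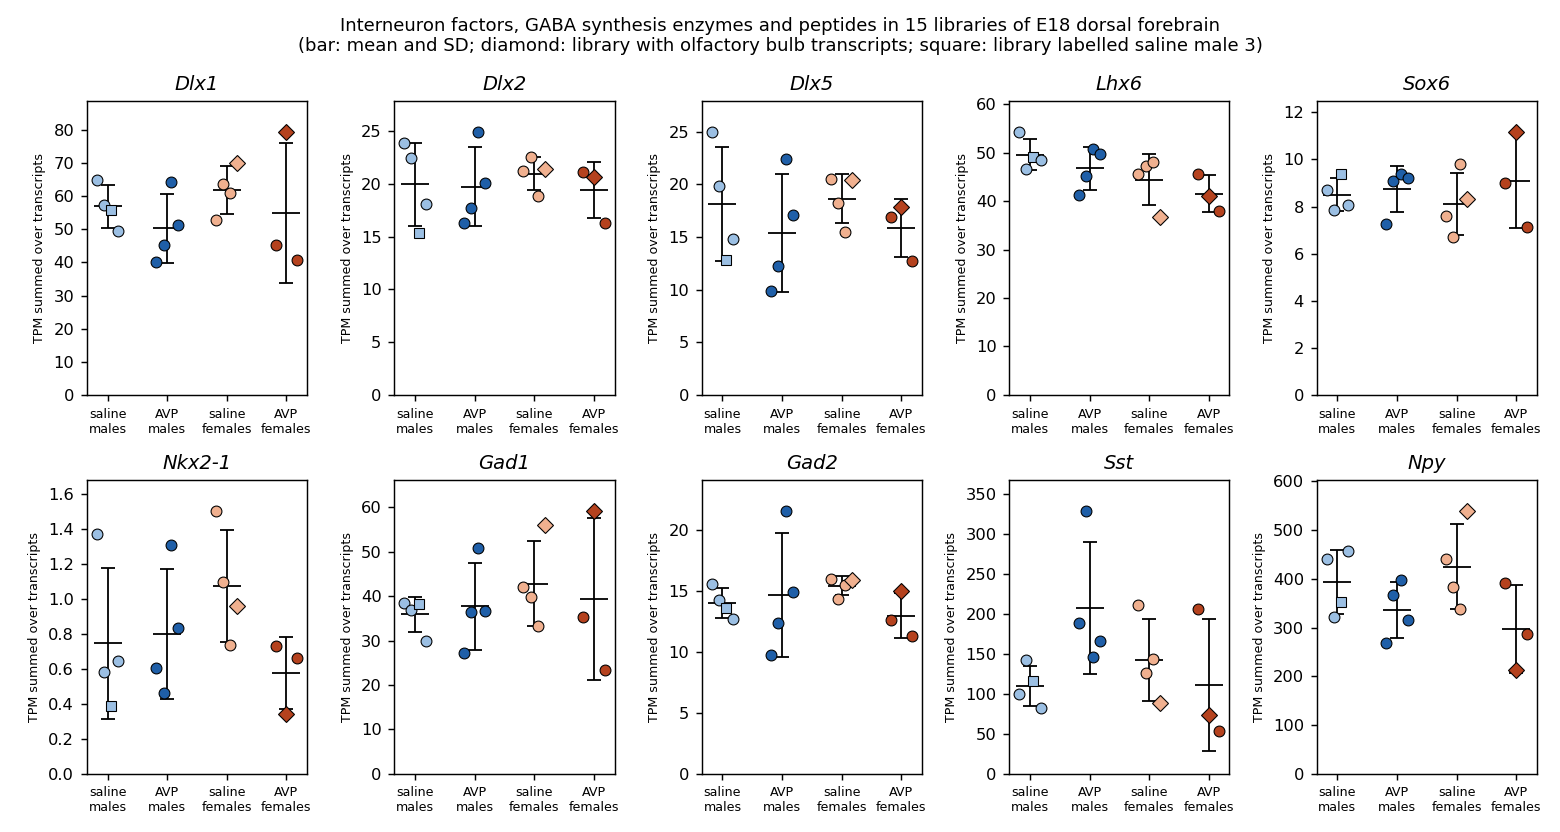
TPM of each of the 10 genes (y axis, from 0) in each library, by group (x axis), with the mean and SD of each group. Diamonds mark AVP female 2 and saline female 4 and squares the library labelled saline male 3. The 4 AVP males lie between 146 and 329 TPM of Sst, above the 4 saline males at 82.7 to 142 TPM, and the diamonds are the highest points for Dlx1 and Gad1.

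The genes differed in how steady they were. Around the group means, log2(TPM + 0.5) of Lhx6 had an SD of 0.14, above only 20.7% of the genes tested over all libraries, whose median was 0.21. Sst had an SD of 0.60, above 94.3% of genes. Gad1 (0.39) and Dlx5 (0.37) lay above 84.2% and 82.7% of genes, and Dlx2 (0.23) and Sox6 (0.20) near the median. Sst ran from 53.8 TPM in AVP female 3 to 329 TPM in AVP male 2, a 6.11-fold range, whereas Lhx6 ran from 36.8 to 54.2 TPM, a 1.47-fold range.

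In males, Sst was the one member with every AVP library above every saline library. The AVP males had 188, 329, 146 and 166 TPM, and the saline males 99.6, 142, 116 and 82.7 TPM. All 4 AVP males lay above all 4 libraries labelled saline male, although AVP male 3 and saline male 2 were only a few TPM apart. The difference was 0.86 ± 0.25 on the log2(TPM + 0.5) scale (SE), or 1.82-fold, with a 95% interval of 0.29 to 1.44. The limma test over all genes gave an unadjusted p of 0.0080 and an adjusted p of 0.304, so Sst did not pass the threshold of 0.05. The exact two-sided permutation p was 0.029, the smallest that 4 against 4 libraries allow. It only restates that the groups did not overlap, and was not adjusted over the members. Among all genes tested, 0.733% had every AVP male above every saline male. Within the libraries that the labels number S1 to S8 the difference was 1.06, and within S13 to S20 it was 0.66, with 2 AVP and 2 saline males in each. Without the library labelled saline male 3 it was 0.90, with an adjusted limma p of 0.612.

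None of the 9 members tested passed an adjusted p of 0.05 in males, where 0.00655% of the 15271 genes tested did (1 gene). At an unadjusted p under 0.05, Sst was the only member called, and it was higher, as were 1.11% of all genes, while 12.4% of all genes were lower. That imbalance over all genes moved with the scaling: 8.22% of the calls at this level were higher as deposited, 56.9% after median-of-ratios scaling and 49.9% after quantile normalization. The median difference over all genes was -0.10, and that of the members -0.01. Relative to the median of all genes, Sst was higher by 0.97.

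The other peptide and the transcription factors gave smaller values in males. Npy was at 267, 366, 397 and 315 TPM in AVP males and at 441, 322, 353 and 457 TPM in saline males, a difference of -0.23 ± 0.15. Its groups overlapped. Dlx1 differed by -0.19 ± 0.14 and Dlx5 by -0.25 ± 0.28, and AVP male 1 was the lowest of the 15 libraries for both. Dlx2 (-0.01 ± 0.17) and Lhx6 (-0.09 ± 0.09) turned positive under median-of-ratios and quantile scaling. The intervals of the difference ran from -0.28 to 0.11 for Lhx6 and from -0.23 to 0.29 for Sox6, and so left out changes of the size seen for Sst.

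The GABA synthesis genes did not separate the male groups. Gad1 was at 27.1, 36.4, 50.8 and 36.7 TPM in AVP males and at 38.6, 36.9, 38.2 and 29.9 TPM in saline males, a difference of 0.05 ± 0.17 with an interval from -0.35 to 0.44. Gad2 was at 9.69, 12.4, 21.5 and 14.9 TPM in AVP males and at 15.5, 14.2, 13.6 and 12.7 TPM in saline males, a difference of 0.01 ± 0.21. The AVP males held both the lowest and the highest male value of each gene, in AVP male 1 and AVP male 3. Those libraries also had the lowest and the highest striatal marker sum, 56.04 and 205 TPM; the part of striatal tissue in these values was not tested.

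In females none of the 9 members tested had an adjusted p under 0.05, as for 0% of the 15132 genes. Of the 9, 8 had a negative difference. The share of negative differences over all genes was not taken, but their median was also negative, at -0.05. The Dlx and Gad genes varied together, as given below, so these signs are not separate observations. Npy was at 391, 212 and 287 TPM in AVP females and at 440, 383, 337 and 539 TPM in saline females. The AVP mean was lower, but AVP female 1 lay above 2 of the saline females. The difference was -0.54 ± 0.22, with an unadjusted p of 0.039 in limma and an adjusted p of 0.999, and the exact permutation p was 0.17. Npy was the only member with an unadjusted p under 0.05, and 2.17% of all genes were lower at that level. Its unadjusted limma p was 0.086 after median-of-ratios scaling and 0.069 after quantile normalization, so this call depended on the scaling. The lowest and highest Npy of all 15 libraries were AVP female 2 and saline female 4, those with olfactory bulb transcripts. Without them the difference was -0.20 ± 0.17, with an adjusted p of 0.690 from the limma fit across all genes. It was -0.07 within S1 to S8, with 1 AVP female, and -0.79 within S13 to S20.

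Leaving out these female libraries moved Dlx1 and Gad1 away from 0, where it had moved Npy toward 0. Dlx1 was at 45.2, 79.3 and 40.6 TPM in AVP females and at 52.7, 63.6, 60.9 and 70.03 TPM in saline females. The highest value in each group came from a library with olfactory bulb transcripts. The difference of Dlx1 went from -0.22 ± 0.22 to -0.45 ± 0.13, with an unadjusted p of 0.010 in limma and an adjusted p of 0.643. Gad1 was at 35.4, 59.2 and 23.3 TPM in AVP females and at 42.1, 39.8, 33.3 and 56.1 TPM in saline females, and its difference went from -0.20 ± 0.30 to -0.40 ± 0.20. Gad2 differed by -0.25 ± 0.13 with all libraries and by -0.34 ± 0.14 without the 2, with an unadjusted p of 0.0498 in limma there. Fitted without them, 2 members, Dlx1 and Gad2, were lower at an unadjusted p under 0.05, as were 5.25% of all genes, and none passed the adjusted threshold. The median over all genes was -0.13 in that fit.

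Sst spread widely in females. It was at 206, 73.7 and 53.8 TPM in AVP females and at 211, 127, 144 and 88.1 TPM in saline females. AVP female 1 and saline female 1 were as high as the AVP males, and AVP females 2 and 3 were the 2 lowest of all 15 libraries. Among females, striatal marker sums were also highest in AVP female 1 (170 TPM) and saline female 1 (194 TPM). They were lowest in AVP females 2 (64.7 TPM) and 3 (72.5 TPM). Saline female 4 had a sum of 133 TPM with low Sst, and AVP male 2, highest for Sst, had 98.1 TPM. The part of striatal tissue in Sst was not tested. The difference was -0.53 ± 0.45, with an interval from -1.56 to 0.49. Lhx6 (-0.09 ± 0.13), Dlx2 (-0.12 ± 0.13) and Dlx5 (-0.23 ± 0.16) had negative differences and Sox6 (0.15 ± 0.20) a positive one, all with groups that overlapped. The median over the 9 members was -0.22 and that over all genes -0.05.

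Nkx2-1 fell below the filter on low values and was tested alone. It was at 0.73, 0.34 and 0.66 TPM in AVP females and at 1.503, 1.10, 0.74 and 0.96 TPM in saline females. All AVP females lay below all saline females, though AVP female 1 and saline female 3 were almost level. The difference was -0.54 on the log2(TPM + 0.5) scale, and the exact two-sided permutation p of 0.057 was the smallest that 3 against 4 libraries allow. That p only restates this placement. Among the genes tested in females, 2.77% were placed this way. These passed the filter, so they leave out Nkx2-1, and no share was taken over genes as low as it. In males the means were 0.80 TPM in AVP and 0.75 TPM in saline embryos, with overlapping groups and an exact permutation p of 0.74. Over all libraries Nkx2-1 was highest in saline female 1, saline male 1 (1.37 TPM) and AVP male 3 (1.31 TPM). These libraries also had the 3 highest striatal marker sums. AVP female 1, with a striatal sum of 170 TPM, held only 0.73 TPM of Nkx2-1. The part of striatal tissue in these values was not tested.

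Marker sums of other tissues differed between the female groups. The 6 meningeal fibroblast markers summed to 120 to 159 TPM in AVP females and to 69.1 to 84.8 TPM in saline females. Of these 6 genes, 5 were higher at an unadjusted p under 0.05 in limma, such as Dcn by 0.97 ± 0.15. Among all genes, 2.34% were higher at that level, and none of the 6 passed the adjusted threshold. Endothelial markers summed to 177 to 179 TPM in AVP females and to 99.9 to 161 TPM in saline females, and 2 of 6 were higher at an unadjusted p under 0.05. Oligodendrocyte precursor markers summed to 33.9 to 61.7 TPM in AVP females and to 62.9 to 95.6 TPM in saline females. All 5 tested had a negative difference, and 2 were lower at that level, beside 2.17% of all genes. These were the lineage factors Olig1 (-0.87 ± 0.27) and Olig2 (-0.59 ± 0.22), which progenitors of the ventral forebrain also express. Pdgfra, another abundant marker of this list, differed by only -0.04 ± 0.17, with overlapping groups. These 3 sums did not overlap between the groups, and those of the tissues that follow did. Of single genes tested in females, 2.77% had every AVP library below every saline library. No such share is given for sums or for the other direction. The 7 red blood cell genes summed to 5130 to 13658 TPM in AVP females and to 2241 to 5707 TPM in saline females. All 5 of them tested were higher at an unadjusted p under 0.05 in limma, with a median difference of 1.04. Choroid plexus markers summed to 20.2 to 2270 TPM in AVP females and to 4.64 to 952 TPM in saline females. Of the 4 tested, 1 was higher at that level. Striatal markers summed to 64.7 to 170 TPM in AVP females and to 102 to 194 TPM in saline females, and all 13 tested had a negative difference, with a median of -0.52. The part of these tissues in the female differences was not tested.

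**Figure D2:**
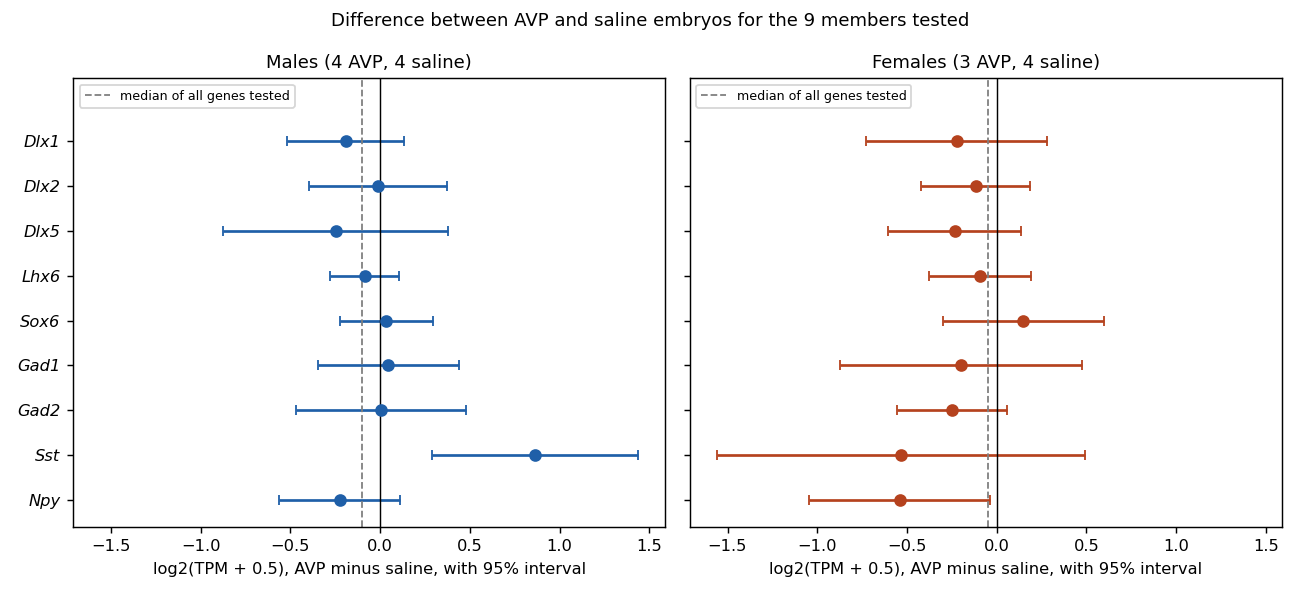
Difference between AVP and saline libraries in log2(TPM + 0.5) (x axis) with its 95% interval for the 9 members tested (y axis), in males (left) and females (right). The dashed line is the median of all genes tested, at -0.10 in males and -0.05 in females. The intervals of Sst in males (0.29 to 1.44) and of Npy in females (-1.04 to -0.04) leave out 0, and those of the others include it.

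Over both sexes together, with sex as a term, Npy had the smallest p among the members. Its difference was -0.37 ± 0.14, or 0.773-fold, with an unadjusted p of 0.020 and an adjusted p of 0.462 in limma. No member passed the adjusted threshold, as for 0% of the 15078 genes tested, and 9.69% of all genes were lower at an unadjusted p under 0.05. Without the libraries with olfactory bulb transcripts the difference of Npy was -0.22 ± 0.12. The medians over the members and over all genes were -0.09 and -0.08.

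Sst was the member whose AVP difference varied most between the sexes. The interaction of treatment and sex was -1.40 ± 0.55 on the log2 scale (female minus male), with an unadjusted p of 0.024 and an adjusted p of 0.896 in limma. No member passed the adjusted threshold (0% of all genes did), and 1.62% of all genes were negative at an unadjusted p under 0.05. With 1 library left out at a time it stayed negative, and was farthest from 0 without AVP female 1, at -1.96, and nearest to 0 without AVP female 3. For Gad1 and Gad2 the interaction was -0.24 ± 0.36 and -0.26 ± 0.26.

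Between the labelled sexes, with treatment as a term, Lhx6 had the smallest p among the members. The difference, female minus male, was -0.17 ± 0.07, with an unadjusted p of 0.033 and an adjusted p of 0.99997 in limma, and 0.743% of all genes were lower at that level. No member passed the adjusted threshold (0% of all genes did). Without the female libraries with olfactory bulb transcripts and the library labelled saline male 3, the difference of Lhx6 was -0.12 ± 0.07. Dlx1, Gad1 and Gad2 were positive with all libraries (0.10, 0.12 and 0.02) and negative without these 3 (-0.07, -0.10 and -0.05).

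The Dlx and Gad genes varied together over the 15 libraries. On the log2(TPM + 0.5) scale Pearson's r was 0.92 between Dlx2 and Dlx5, 0.85 between Dlx1 and Gad1, 0.82 between Dlx5 and Gad2 and 0.73 between Gad1 and Gad2. The lowest r within this set was 0.61, between Dlx1 and Dlx2. The other members varied less with them. Sst ran from an r of -0.33 against Dlx1 to 0.05 against Dlx2. Npy ran from 0.10 against Dlx1 to 0.45 against Dlx5, and Lhx6 from 0.01 against Gad1 to 0.40 against Gad2. Sox6 had r of 0.51 against Gad1 and 0.08 against Dlx2. These values are descriptions over libraries that share groups and dissections. The 3 libraries with the highest striatal marker sums, AVP male 3 (205 TPM), saline female 1 (194 TPM) and saline male 1 (172 TPM), held 22.5, 20.5 and 25.0 TPM of Dlx5, its 3 highest values. AVP female 1, with a striatal sum of 170 TPM, held only 16.9 TPM of Dlx5, and saline male 2, with 89.3 TPM, held 19.8 TPM. AVP male 3 also had the highest Dlx2 (24.9 TPM) and Gad2 (21.5 TPM). AVP female 2 and saline female 4 had the highest Dlx1 and Gad1 instead, and Gad1 exceeded Gad2 by 3.96 and 3.53 times there, against a median ratio of 2.63. Lhx6, which marks interneurons of the medial eminence, was lowest in saline female 4 and also low in AVP female 2, where 2 libraries were lower. The part of striatal and olfactory bulb tissue in these patterns was not tested.

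**Figure D3:**
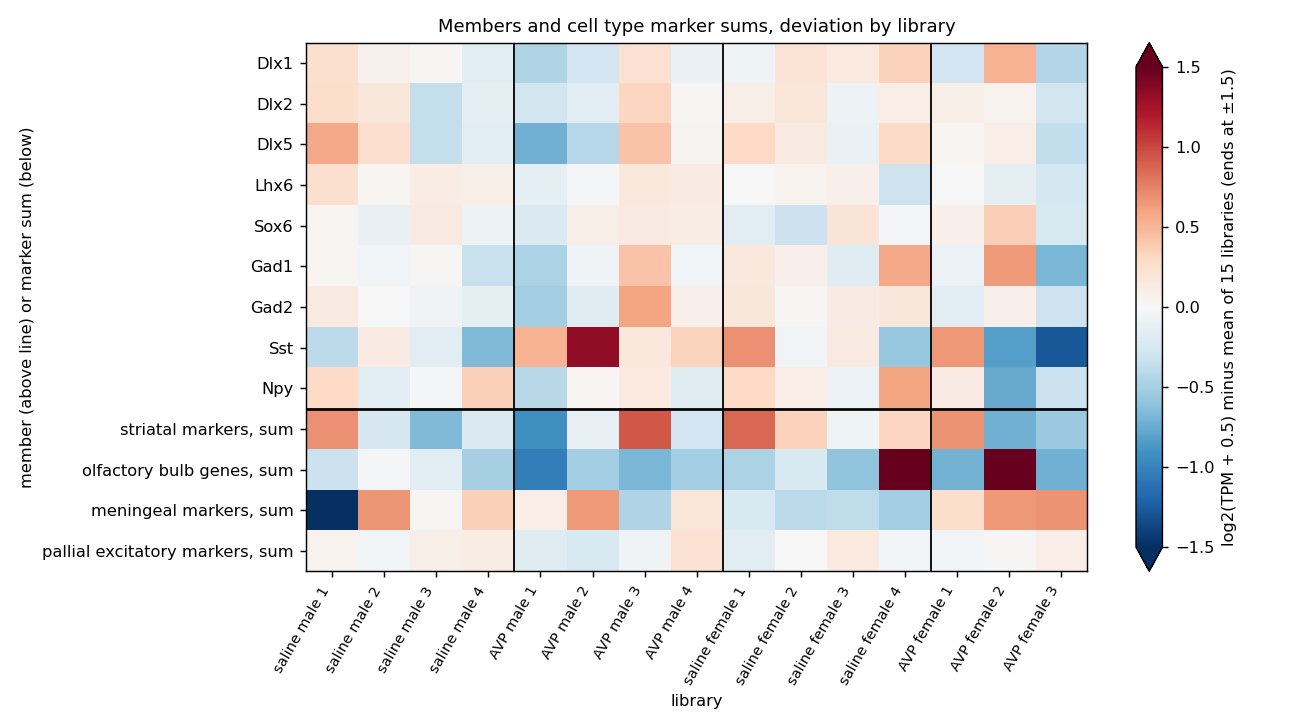
Deviation of log2(TPM + 0.5) from the mean of the 15 libraries (colour) for 9 members and 4 marker sums (rows) in each library (columns, by group). Dlx5 is high in AVP male 3 and saline male 1, where the striatal sum is high, but not in AVP female 1, whose striatal sum is also high. Dlx1 and Gad1 are highest in the libraries with olfactory bulb genes. Sst is highest in AVP male 2, whose striatal sum is 98.1 TPM. Among females Sst is highest in AVP female 1 and saline female 1, as is the striatal sum.

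The genes whose levels ran closest to those of 5 members were found by Pearson's r over 15 libraries among all genes tested. For Gad1 they included Dcbld2 (0.92), Snhg11 (0.90), Igsf11 (0.89) and Cntfr (0.88). Without the 2 libraries with olfactory bulb transcripts Dcbld2 had an r of 0.86 and Igsf11 of 0.77. For Sst they were Eid2b (0.92), the retinoic acid degrading enzyme Cyp26b1 (0.90), Mydgf (0.90), Lmo3 (0.89) and the calcium binding protein Calb1 (0.88). For Npy they were A830009L08Rik (0.93), Msx3, Pth1r (both 0.90), Pla2g4e and Gucy1a1 (both 0.89). For Sox6 they were the ubiquitin ligase Nedd4 (0.95), Fzd3, BC005561, Phip (all 0.93) and Rab11a (0.92). Lhx6 had the weakest list, Nabp2 (0.84), Abhd17c, Rnf219 (both 0.80), Pole4 and Fam32a (both 0.79).

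Calb1, which marks part of the Sst interneurons and many other neurons, was among the genes picked for likeness to Sst over these same libraries, so its male difference is a description and adds nothing independent to that of Sst. It was at 11.6, 16.3, 11.2 and 7.46 TPM in AVP males and at 4.88, 7.33, 7.50 and 4.14 TPM in saline males. Only AVP male 4 fell within the saline range. The difference was 0.90 ± 0.26. Of the other genes close to Sst, Cyp26b1 differed by 0.43 ± 0.27 and Lmo3 by 0.22 ± 0.14 in males.

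**Figure D4:**
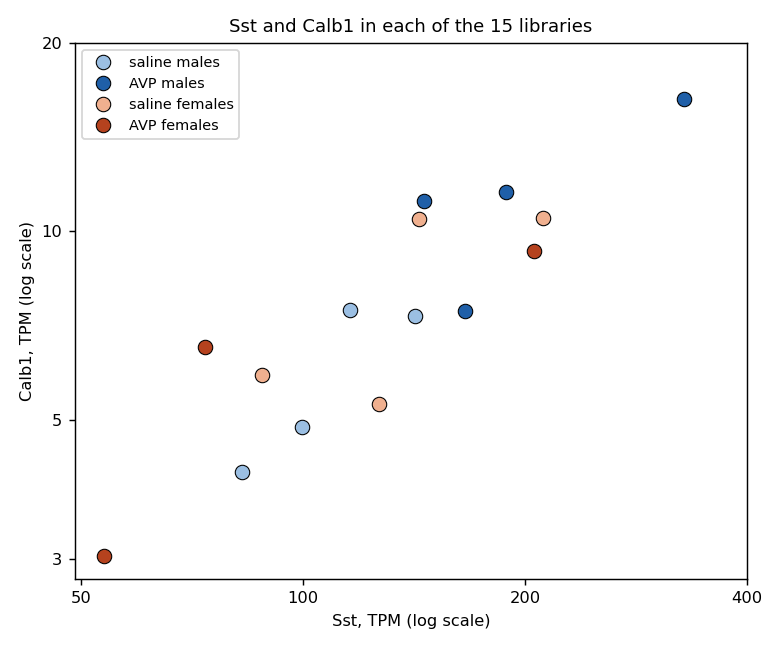
Calb1 (y axis) against Sst (x axis), both TPM on log scales, in each of the 15 libraries, coloured by group. AVP male 2 is highest for both (329 TPM of Sst and 16.3 TPM of Calb1) and AVP female 3 lowest for both (53.8 and 3.04 TPM).

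Transcripts differed in how clearly 1 isoform made up a gene. Sst-201 and Npy-201 were the only transcripts of their genes, and Dlx2-201 and Dlx5-201 made up 94.5% and 93.7% of theirs. Gad1 was split between Gad1-201 (36.9%), the coding transcript of 17 exons, and Gad1-206 (47.3%), annotated as a processed transcript without a coding sequence. The share of Gad1-201 ran from 20.1% in AVP female 3 to 57.8% in AVP male 2, and averaged 41.2% ± 18.98 (SD, n = 4) in AVP males and 30.9% ± 3.08 in saline males. In females the order was the other way, with 35.1% ± 13.1 (SD, n = 3) in AVP and 40.5% ± 11.7 in saline embryos, and neither difference was tested. These shares rest on how Kallisto divides reads between transcripts that share most exons. Gad2-201 made up 87.1% of Gad2 and the short Gad2-202 12.9%.

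Among the transcription factors, Dlx1, Lhx6 and Sox6 rested least on a single transcript. Dlx1-201 made up 40.7% of Dlx1, and the retained-intron transcripts Dlx1-203 and Dlx1-206 23.3% and 20.96%, so coding transcripts were a smaller part of Dlx1 than of Dlx2 or Dlx5. Dlx1-205, also coding, made up 11.5%. Lhx6-204 made up 56.1% and Lhx6-201 22.7% of Lhx6, and Sox6-210 67.0% of Sox6. Nkx2-1-202 and Nkx2-1-201 made up 77.9% and 22.1% of Nkx2-1. Nkx2-1-202 was at 0 in AVP male 2, and Nkx2-1-201 in saline males 3 and 4 and in all 3 AVP females.

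**Figure D5:**
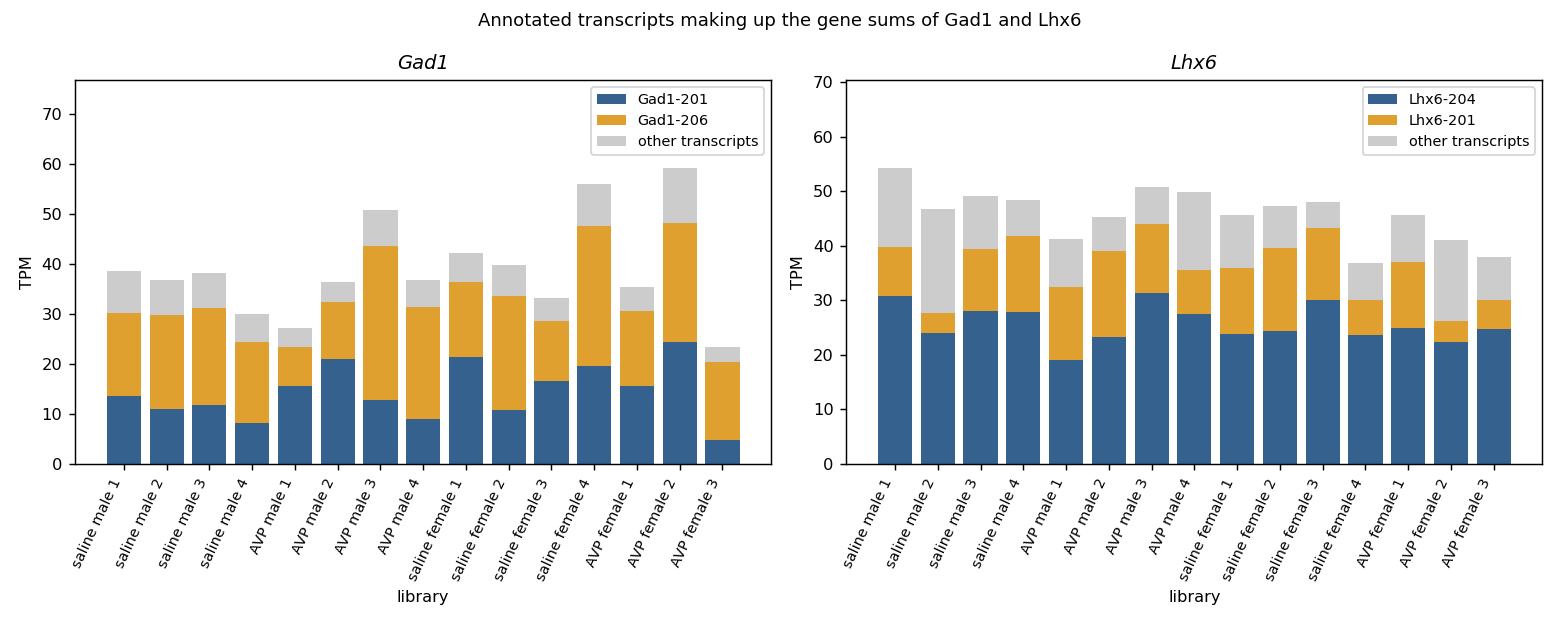
TPM of the transcripts (stacked bars, from 0) that make up Gad1 (left) and Lhx6 (right) in each library (x axis). Transcripts with at least 10% of the gene are coloured and the others are grey. Gad1-206 ranges from 7.86 to 30.8 TPM and Gad1-201 from 4.69 to 24.4 TPM, while Lhx6-204 stays between 19.1 and 31.4 TPM.

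Among 68 other genes of interneurons and GABA signalling, none passed the adjusted threshold in any of the 5 comparisons. Of 17 lineage factors tested in males, 2 were lower at an unadjusted p under 0.05 in limma and none higher, a share near the 12.4% of all genes that were lower. These were the chromatin organizer Satb1, which acts in maturing Sst interneurons (51.2 to 56.5 TPM in AVP and 55.6 to 70.7 TPM in saline males, -0.23 ± 0.08), and Npas1 (-0.42 ± 0.15). The most abundant lineage factors, Nr2f1 at 128 TPM and Zeb2 at 102 TPM, differed by -0.09 ± 0.14 and -0.21 ± 0.11. Of 18 migration and maturation genes, 2 were lower and 1 higher, again near the shares over all genes (12.4% and 1.11%). The chemokine receptor Cxcr4, which holds interneurons in their tangential streams, was at 29.5 to 34.0 TPM in AVP and 33.5 to 48.8 TPM in saline males (-0.34 ± 0.11), the cannabinoid receptor Cnr1 differed by -0.22 ± 0.09, and Nxph2 by 0.27 ± 0.12. The medians of these lists were -0.09 and -0.06, beside -0.10 over all genes.

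Of 7 other peptides and calcium binding proteins tested in males, Calb1 alone had an unadjusted p under 0.05 (0.0066, adjusted 0.304, in limma), and it was higher, as were 1.11% of all genes. Reln (73.3 TPM), Cck (71.3 TPM) and Calb2 (25.5 TPM) were the most abundant, and differed by 0.15 ± 0.20, -0.07 ± 0.25 and -0.01 ± 0.23. Of the 11 genes of GABA transport, breakdown and synapses none had an unadjusted p under 0.05 in males, with Nlgn2 at 95.3 TPM and the vesicular transporter Slc32a1 at 11.7 TPM. Of the receptors of both peptides 6 were tested in males and none was called. Sstr2 (23.7 TPM) differed by 0.04 ± 0.21, Npy1r (15.9 TPM) by -0.29 ± 0.14 and Sstr1 (9.77 TPM) by -0.17 ± 0.23.

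Not all of these 68 genes passed the filter in females. Tested were 17 lineage factors, 18 migration and maturation genes, 8 peptides and calcium binding proteins, 11 GABA genes and 5 receptors. Among these, 2 had an unadjusted p under 0.05 in limma, both higher. That is near the 2.34% of all genes tested that were higher. Cxcl12, the ligand of Cxcr4, which the meninges also secrete, was at 64.4 to 72.3 TPM in AVP females and 31.4 to 52.2 TPM in saline females (0.63 ± 0.18). Slc6a13, a GABA transporter of the meninges, was at 13.1 to 22.4 TPM in AVP females and 9.67 to 12.6 TPM in saline females (0.71 ± 0.20). The meningeal marker sums given above were higher in the same libraries, and their part was not tested. Slc32a1 (-0.38 ± 0.28), the glial GABA transporter Slc6a11 (-0.55 ± 0.31) and Sstr1 (-0.65 ± 0.43) had negative differences and were not called. The medians in females were -0.12 for GABA transport and synapse genes, -0.07 for lineage factors and -0.05 for all genes. Those of the other lists were -0.30 for peptides and calcium binding proteins, -0.15 for receptors and -0.0002 for migration and maturation genes.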

How the data were processed

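Total RNA of 15 dorsal forebrains was made into stranded mRNA-seq libraries by the authors. They trimmed reads with Trim Galore 0.4.1, checked them with FastQC 0.5.2 and quantified GENCODE M16 transcripts (GRCm38) with Kallisto 0.43.1. The deposited table gives 1 TPM value per transcript and library, which the authors normalised to transcript length and library total; the unit was read from equal column totals. TPM keep no depth, so no counting intervals were given. Transcripts (133849) were added up to 53337 genes by the GENCODE M21 annotation, which lacks 404 of them.

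Genes reaching 1 TPM in 50% or more of a comparison's libraries were fitted on the log2(TPM + 0.5) scale. The fits used limma 3.58.1 (R 4.3.3, variance trend on), and p-values were adjusted by Benjamini-Hochberg (threshold 0.05). The test was tried on simulated data. Males and females were fitted apart, and all 15 libraries together for both sexes, the interaction and sex. Nkx2-1, below the filter, was tested by exact permutation (scipy 1.17.1). The same test was also run on every other member within each sex, with no adjustment over the members. The authors' Sleuth results were not used. Promoter windows came from RefSeq. The study gives each embryo of a group its own litter, and litters shared between the sexes could not be modelled. Members and gene lists were chosen with earlier results of these data known, and the olfactory bulb and sex genes after values were seen. From each list the 3 most abundant genes, and for pathways up to 3 with the smallest p in each sex, could be named; 1 gene that these rules name is not reported here. Alternatives were other scalings, filters, pseudocounts (0.1 and 1), no trend, S numbers as a term, 1 fit of all libraries, and leaving out libraries.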

Additional observations from a re-analysis of the deposited data

Results flagged for a closer look

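One value stood apart from the rest of its group of 4. Sox6 was at 7.27 TPM in AVP male 1, while the other 3 AVP males had 9.07 to 9.39 TPM, and the gap was 0.865 of the group's range on the log2 scale, above Dixon's critical value of 0.829. In all, 30 groups of 4 libraries were examined, in which chance flags 1.5. AVP male 1 also had the lowest Dlx1, Dlx5 and Gad2 of all 15 libraries. No member had an interaction of treatment and sex that passed the adjusted threshold.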

How the results depend on the processing

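No member passed the adjusted threshold in limma under any alternative run, in any of the 5 comparisons. Sst in males kept its direction in all 17 alternatives, from 0.62 to 1.01, with unadjusted p from 0.0032 to 0.037. Under limma the count of all genes past the threshold in males was 1 as reported, 2 without the trend, and 0 with a minimum of 5 TPM, a pseudocount of 1, S numbers as a term or 1 fit of all 15 libraries. Between the sexes it was 2 without the libraries with olfactory bulb transcripts and 9 without these and the library labelled saline male 3, both chosen after seeing the data. With 1 library left out at a time it ran from 0 to 6 in males (6 without AVP male 2, 5 without AVP male 3 or 4), 0 to 6 in females (6 without saline female 4), 0 to 1 over both sexes (1 without AVP female 2), 0 to 1 for the interaction (1 without saline male 1) and 0 to 7 between the sexes (7 without saline male 3 or saline female 1).

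Some log2 differences near 0 changed sign; the cause was not tested. Median-of-ratios scaling gave 0.10 for Dlx2 and 0.026 for Lhx6 in males, 0.012 for Dlx2 and 0.0063 for Gad1 over both sexes, and -0.064 for Dlx5 in the interaction. Quantile normalization gave 0.12 for Dlx2 and 0.04 for Lhx6 in males, 0.034 for Dlx2, 0.0058 for Lhx6 and 0.035 for Gad1 over both sexes, and -0.082 for Dlx5 and -0.016 for Sox6 in the interaction. Without the libraries with olfactory bulb transcripts the interaction was -0.030 for Dlx5, -0.019 for Sox6 and 0.027 for Npy, and the difference between the sexes -0.059 for Dlx1, -0.10 for Gad1 and -0.029 for Gad2. Also without the library labelled saline male 3 the latter was -0.072 for Dlx1, -0.051 for Dlx2, -0.058 for Dlx5, -0.10 for Gad1 and -0.047 for Gad2.

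With 1 library left out at a time, values crossed 0 as follows. In males Dlx2 ran from -0.13 to 0.079, Sox6 from -0.0015 to 0.11, Gad1 from -0.11 to 0.19, Gad2 from -0.19 to 0.18 and Nkx2-1 from -0.093 to 0.29. In females Sox6 ran from -0.0024 to 0.30 and Gad1 from -0.54 to 0.12, and over both sexes Gad1 from -0.19 to 0.075. In the interaction Dlx1 ran from -0.32 to 0.15, Dlx2 from -0.20 to 0.012, Dlx5 from -0.17 to 0.21, Lhx6 from -0.093 to 0.056, Sox6 from -0.036 to 0.27 and Gad1 from -0.59 to 0.075. Between the sexes Dlx1 ran from -0.012 to 0.18, Dlx2 from -0.022 to 0.092, Sox6 from -0.089 to 0.033, Gad1 from -0.00033 to 0.26, Gad2 from -0.046 to 0.11 and Npy from -0.11 to 0.066.

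The female difference of Npy ran from -0.76 without AVP female 1 to -0.32 without AVP female 2, and that of Sst from -1.10 without AVP female 1 to -0.14 without AVP female 3. Over all 17 alternatives the unadjusted limma p of Npy in females ran from 0.0065 to 0.28. That of the Sst interaction ran from 0.00065 to 0.089 over 24 alternatives. Taking the most abundant transcript alone gave 22.9 TPM for Dlx1, 25.7 for Lhx6, 5.74 for Sox6 and 18.4 for Gad1. TPM keep no depth, so what depth limits could not be told.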

Other observations

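Calretinin (Calb2), a marker of interneurons of the caudal eminence and of the olfactory bulb, was at 87.2 TPM in AVP female 2 and 54.0 TPM in saline female 4, and at 9.89 to 28.2 TPM in the other 13 libraries. Tac1, a peptide of striatal projection neurons, ran from 1.38 to 49.9 TPM and was highest in AVP male 3, the library with the highest striatal marker sum. Npy exceeded Sst by 1.11 times in AVP male 2 and by 6.12 times in saline female 4, with a median of 2.72 over the 15 libraries. Ttr, the transthyretin gene of choroid plexus, ran from 1.53 TPM to 2197 TPM and was highest in AVP female 1.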
